A study of Mus musculus with 9 samples.

Results

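Interferon-stimulated genes of the type I pathway, the antiviral and regulatory genes that cells switch on when they sense interferon-β or interferon-α, were described in LPS-treated mouse macrophages that could or could not make itaconate. The set held 52 named genes (Isg15, the Ifit, Mx, Oas, Parp, Slfn and Trim families, and single effectors such as Rsad2, Bst2 and Eif2ak2), taken by symbol from a table of 22165 genes. All 52 were in the table, and all 52 passed the filter on low counts that left 10781 genes for testing. The cells were bone marrow-derived macrophages, grown in culture from the marrow of C57BL/6N mice aged 6 to 16 weeks. The 3 groups of 3 libraries were compared, and every group had received lipopolysaccharide (LPS, a Gram-negative outer membrane component) at 100 ng/mL for 24 h. The KO + itaconate group was Irg1-/- and received 1 mM itaconate 4 h after LPS, the KO group was Irg1-/- with LPS alone, and the WT group was wild type with LPS alone. No library without LPS was analysed here, so induction by LPS itself was not measured. Irg1, also named Acod1, encodes the mitochondrial enzyme that makes itaconate, which accumulates in macrophages during the hours after LPS. Which stretch of Irg1 is missing is not stated in the labels. They also name no animal or culture for a replicate, and p-values therefore measure only the spread among these samples, which may be technical.

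LPS is sensed by TLR4, whose TRIF arm activates IRF3 and switches on Ifnb1. Secreted interferon-β then binds the IFNAR1 and IFNAR2 receptor on the same and neighbouring cells, the kinases JAK1 and TYK2 are activated, and the complex ISGF3, which contains STAT2 and IRF9, forms and enters the nucleus. ISGF3 binds interferon-stimulated response elements in promoters, and the genes it turns on block virus entry, translation, RNA stability and budding, or feed back on the pathway itself.

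The response element can be read in the promoters of some members. RefSeq windows on GRCm38.p6, from 250 bases before to 50 bases after a gene's start, were matched by symbol for 41 of the 52 members. Its core is GAAA followed by any 2 bases and a second GAAA, on either strand. This core was found for 16 of those 41 members (39.0%), against 1079 of all 27025 genes with a window (3.99%). The members had 50 windows between them, and a gene was counted if any of its windows held a match. At least 2 copies, which may overlap, were found in 10 of the 41 members and in 0.266% of all genes. The stretches below, of 110 bases each and all before the start, are shown because Isg15 and Bst2 are 2 of the 3 members with the smallest p among those higher in KO + itaconate than in KO, because the Ifit3 and Oas1 pairs are neighbouring copies, and because Rsad2 is among the most variable members. No match to the core was found for Daxx, the other of those 3, or for Xaf1, Phf11d, Sp100 and Samd9l, which head comparisons below. A member without a window would also show no match. Each stretch is read in the direction of transcription, and capitals mark the core on either strand.
Isg15 (chr4:156200831-156200940, minus strand): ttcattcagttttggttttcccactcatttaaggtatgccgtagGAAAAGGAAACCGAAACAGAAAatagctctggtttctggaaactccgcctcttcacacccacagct
Bst2 (chr8:71537540-71537649, minus strand): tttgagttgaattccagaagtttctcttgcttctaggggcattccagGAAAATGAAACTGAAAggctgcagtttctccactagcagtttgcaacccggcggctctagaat
Ifit1 (chr19:34640744-34640853, plus strand): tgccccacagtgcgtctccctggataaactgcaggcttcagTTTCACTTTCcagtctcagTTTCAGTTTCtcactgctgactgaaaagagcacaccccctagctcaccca
Ifit3 (chr19:34583340-34583449, plus strand): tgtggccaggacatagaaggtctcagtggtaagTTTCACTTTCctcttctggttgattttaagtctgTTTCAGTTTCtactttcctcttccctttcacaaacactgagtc
Ifit3b (chr19:34607736-34607845, plus strand): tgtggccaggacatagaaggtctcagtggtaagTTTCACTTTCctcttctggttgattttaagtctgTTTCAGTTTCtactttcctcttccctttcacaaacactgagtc
Oas1a (chr5:120907528-120907637, minus strand): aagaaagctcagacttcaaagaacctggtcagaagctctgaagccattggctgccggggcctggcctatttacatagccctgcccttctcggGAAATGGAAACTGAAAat
Oas1g (chr5:120887614-120887723, minus strand): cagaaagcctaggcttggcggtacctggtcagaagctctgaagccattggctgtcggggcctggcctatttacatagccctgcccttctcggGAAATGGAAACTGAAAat
Rsad2 (chr12:26456513-26456622, minus strand): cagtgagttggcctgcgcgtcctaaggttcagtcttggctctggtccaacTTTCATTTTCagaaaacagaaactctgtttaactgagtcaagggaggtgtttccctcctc
Isg15 carries 3 overlapping copies in tandem, and Bst2, Oas1a and Oas1g carry 2 overlapping copies. Ifit1, Ifit3 and Ifit3b carry 2 separate copies on the other strand, and Rsad2 carries 1. The Ifit3 and Ifit3b stretches differ at 0 of 110 bases, and those of Oas1a and Oas1g at 10 of 110. These stretches were chosen around the matches, and over the whole windows, aligned without gaps, identity was lower, at 75.0% of 268 bases for Ifit3 and Ifit3b and 69.5% of 298 bases for Oas1a and Oas1g. A match is a run of letters and does not show that a factor binds there.

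Gene reads per library numbered 7361671 to 20430359, so that 3 reads correspond to 0.147 to 0.408 CPM (counts scaled to a common library total). Irg1 itself was read first, and 4 libraries did not match their genotype label. The libraries labelled KO + itaconate replicates 1 to 3 held 94, 8 and 60716 Irg1 reads, the KO libraries 154, 170 and 44920, and the WT libraries 94, 117 and 31169. KO + itaconate replicate 3, KO replicate 3, WT replicate 1 and WT replicate 2 are the 4 in conflict, and each fold change of the members with the smallest p is given below with and without them. Leaving them out keeps 2 libraries of KO + itaconate, 2 of KO and 1 of WT, whose spread is then assumed to be that of the other groups. A number before the barcode in the labels, read here as a pool, puts all WT libraries and KO replicates 1 and 2 in pool 1, KO replicate 3 and KO + itaconate replicate 1 in pool 2, and the other KO + itaconate libraries in pools 3 and 4, so that pool and treatment cannot be told apart. KO + itaconate replicate 3 also stood apart, with 33.7% of its reads assigned to no counted gene feature against at most 28.4% in any other library. All 8 macrophage markers had at least 10 reads in every library, and their summed level was 3675 to 7257 CPM in KO + itaconate, 6697 to 7163 in KO and 7438 to 9694 in WT. Markers of T, B and NK cells summed to at most 1.37 CPM and those of dendritic cells to at most 0.923 CPM in any library. The neutrophil and precursor list summed to 116 to 239 CPM in KO + itaconate, 224 to 277 CPM in KO and 216 to 286 CPM in WT. Nearly all of that sum came from Csf3r (302 to 2841 reads per library) and S100a8 (346 to 2313 reads). Ly6g and Mpo had at most 3 reads and Elane at most 11 reads in any library. The fibroblast list summed to 74.2 to 93.1, 80.5 to 93.0 and 77.7 to 116 CPM in the same order of groups. The part of any such other cells in the members' values was not tested. In cultured cells measured in bulk, fewer responding cells and less RNA per cell cannot be told apart.

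The 52 members together took 2.69%, 2.36% and 2.89% of the gene reads in KO + itaconate, 2.21%, 2.23% and 3.01% in KO, and 3.06%, 1.72% and 2.38% in WT. The highest and the lowest share were thus both in WT libraries, and the KO + itaconate values lay inside the WT range. No member passed the test in any comparison. The quasi-likelihood F test of edgeR with Benjamini-Hochberg adjustment over 10781 genes called 0 members and 0% of all genes in KO + itaconate against KO, in KO + itaconate against WT and in KO against WT. DESeq2 and limma-voom also called 0 members in each.

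**Figure D1:**
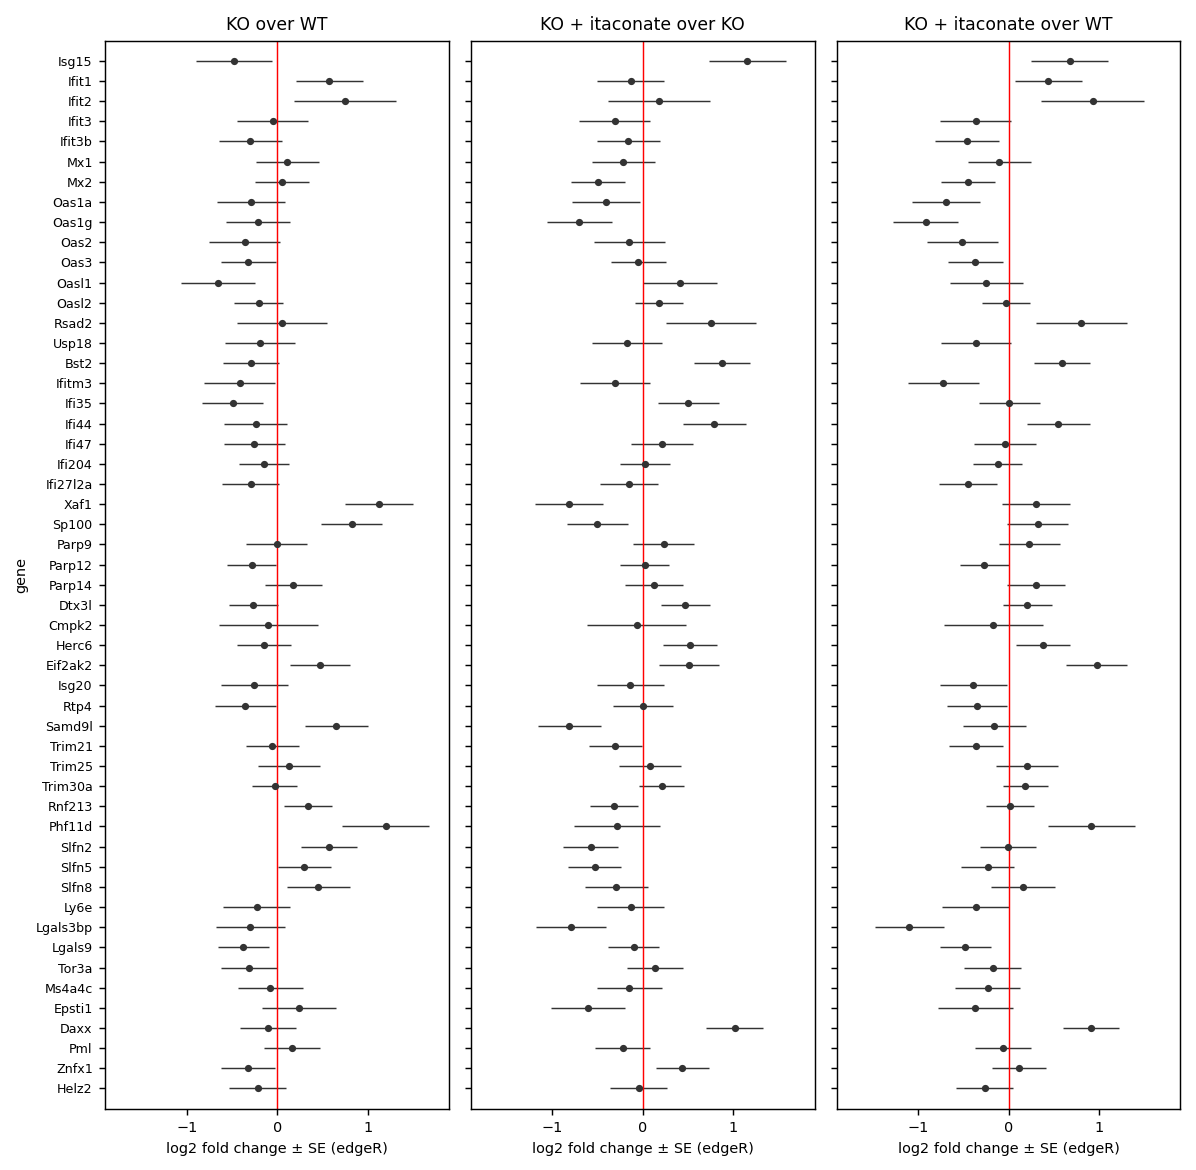
Log2 fold change ± SE of the 52 members (rows) in KO over WT, KO + itaconate over KO, and KO + itaconate over WT, from the edgeR fit of 9 libraries; the line marks 0. No member passed the adjusted threshold, and the highest value for KO + itaconate over KO is that of Isg15 at 1.15.

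In KO + itaconate against KO, Isg15, Bst2 and Daxx had the highest values relative to KO, and none passed the adjusted threshold. An unadjusted p under 0.05 was reached by 6 of the 52 members (7 by DESeq2 and 7 by limma-voom), 4 higher and 2 lower in KO + itaconate, against 8.3% of all genes tested. Over the members, 22 were higher and 30 lower, with a median log2 fold change of −0.12, beside −0.02 over all genes, of which 48.4% were higher. The median was on the other side of 0 without KO + itaconate replicate 3 (0.07), with the pool as a term (0.11) and without the 4 libraries in conflict (0.13). The groups did not overlap for 3 members that were higher (Bst2, Ifi44 and Daxx), against 5.61% of all genes, and for 1 that was lower (Mx2), against 5.29%.

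Isg15 encodes a ubiquitin-like protein that is attached to other proteins or secreted. It had 134, 222 and 183 CPM in KO + itaconate, against 41.8, 60.3 and 141 CPM in KO and 117, 65.9 and 155 CPM in WT. The third KO library reached the lowest KO + itaconate library, so those groups overlapped, and the WT libraries lay across both. The log2 fold change against KO was 1.15 ± 0.43 (SE, n = 3 each), with an edgeR adjusted p of 0.523. Without the 4 libraries in conflict it was 1.77 ± 0.38 with an adjusted p of 0.0177, and Isg15 was then the 1 member called, where 1.91% of 11342 genes were called. Over its 19 alternatives the adjusted p of Isg15 ran from 0.0177 to 1 (edgeR, DESeq2 and limma-voom), and the log2 fold change from −0.07 to 1.81. The lowest value came with the pool as a term, a fit that rests on pool 2, where KO + itaconate replicate 1 had 134 CPM and KO replicate 3 had 141 CPM. The highest came without KO replicate 3, which is among the libraries in conflict.

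Bst2, or tetherin, holds budding virus particles at the cell surface. It had 218, 245 and 201 CPM in KO + itaconate, against 79.9, 117 and 164 CPM in KO and 140, 114 and 187 CPM in WT. Every KO + itaconate library was above every KO and every WT library. The log2 fold change against KO was 0.88 ± 0.31 (edgeR adjusted p = 0.515), and 1.20 without the 4 libraries in conflict. With the pool as a term it was 0.41. Isg15 and Bst2, on chromosomes 4 and 8, had similar profiles over the 9 libraries (Pearson r of log2 CPM 0.96, and 0.95 without KO + itaconate replicate 3).

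Daxx encodes a histone H3.3 chaperone of nuclear bodies. It had 432, 658 and 652 CPM in KO + itaconate, against 213, 235 and 414 CPM in KO and 360, 248 and 317 CPM in WT. Its KO + itaconate libraries were above all others, although the lowest of them was close to KO replicate 3. The log2 fold change was 1.01 ± 0.31 against KO (edgeR adjusted p = 0.507) and 0.91 ± 0.31 against WT (adjusted p = 0.518). With the pool as a term these were 0.06 and −0.40, and without the 4 libraries in conflict 1.25 and 0.77. No pool held both KO + itaconate and WT libraries. The pool fit therefore links these groups only through KO replicate 3, which is in conflict with its label. Ifi44, a cytoplasmic protein with antiviral activity, had 571, 901 and 676 CPM in KO + itaconate, against 329, 366 and 547 CPM in KO and 591, 262 and 612 CPM in WT. Its KO + itaconate libraries were above every KO library, but overlapped WT, and the log2 fold change against KO was 0.79 ± 0.35, or 0.06 with the pool as a term and 1.05 without the 4 libraries in conflict.

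Lower in KO + itaconate than in KO by the smallest unadjusted p were Samd9l, Xaf1 and Lgals3bp, at log2 fold changes of −0.81 ± 0.35, −0.82 ± 0.37 and −0.79 ± 0.38 (SE). Their edgeR adjusted p-values were 0.576, 0.597 and 0.604. Samd9l, a restriction factor that blocks translation, had 134, 105 and 217 CPM in KO + itaconate, against 329, 164 and 307 CPM in KO and 183, 202 and 122 CPM in WT. Its highest KO + itaconate library lay above the lowest KO library, so the groups overlapped. Lgals3bp, a secreted glycoprotein that binds galectins, had 371, 314 and 107 CPM in KO + itaconate, against 366, 609 and 398 CPM in KO and 631, 503 and 556 CPM in WT. Without KO + itaconate replicate 3, its lowest library, the log2 fold change was −0.43. Without the 4 libraries in conflict, Samd9l was at −1.07, Xaf1 at −0.80 and Lgals3bp at −0.54.

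**Figure D2:**
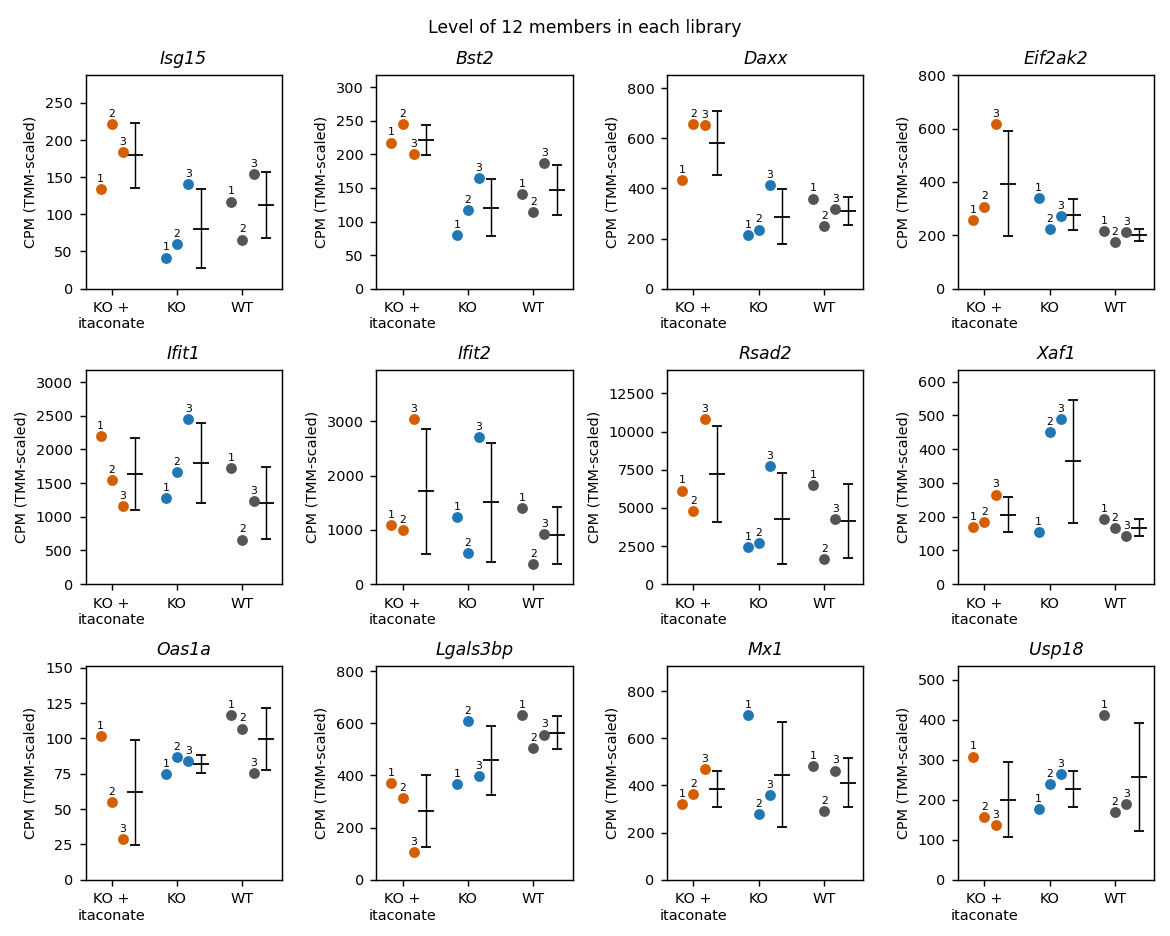
TMM-scaled CPM of 12 members in each library, with replicate numbers beside the points and the mean ± SD (n = 3) beside each group. The KO + itaconate libraries are above all others for Bst2 and Daxx, Xaf1 is high in KO replicates 2 and 3, and Lgals3bp is low in KO + itaconate replicate 3.

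In KO against WT, members with the smallest p were higher in KO and were Xaf1, Phf11d and Sp100. An unadjusted p under 0.05 was reached by 3 of the 52 members in edgeR, DESeq2 and limma-voom alike, against 3.13% of all genes in edgeR. Over the members, 18 were higher and 34 lower in KO, with a median log2 fold change of −0.14, beside −0.01 over all genes, of which 48.9% were higher. Without WT replicate 1 the median was 0.02, on the other side of 0. The groups did not overlap for 2 members that were higher (Eif2ak2 and Phf11d), against 4.85% of all genes, and for 4 that were lower (Oas3, Ifitm3, Ifi27l2a and Dtx3l), against 5.76%.

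Xaf1 encodes a protein that promotes apoptosis. It had 153, 450 and 488 CPM in KO, against 193, 165 and 143 CPM in WT, with 169, 184 and 265 CPM in KO + itaconate. KO replicates 2 and 3 stood above all other libraries, while KO replicate 1 lay within the WT range. The log2 fold change was 1.12 ± 0.38 (edgeR adjusted p = 0.995), 0.87 without KO replicate 3, 1.49 without KO replicate 1 and 1.10 without the 4 libraries in conflict. KO replicate 3 is the one whose Irg1 reads conflict with its label. Phf11d, a member of a family of PHD finger genes, had 324, 179 and 136 CPM in KO, against 106, 108 and 64.6 CPM in WT, and ranged from 55.1 to 290 CPM in KO + itaconate. Its KO libraries were all above WT, led by KO replicate 1, without which the log2 fold change of 1.20 ± 0.48 was 0.76. Without the 4 libraries in conflict it was 1.98 ± 0.67. Of the 50-base stretches in its last 500 transcript bases, 22.5% were shared with Phf11a, Phf11b or Phf11c, so its counts are less certain. Sp100, the scaffold of a class of nuclear bodies, had 444, 239 and 366 CPM in KO, against 269, 148 and 176 CPM in WT. KO replicate 2 lay below WT replicate 1, and the log2 fold change was 0.82 ± 0.34 (edgeR adjusted p = 0.995), or 0.98 without the 4 libraries in conflict.

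Among members lower in KO than in WT, Oasl1, Ifi35 and Lgals9 had the smallest p, at log2 fold changes of −0.66 ± 0.41, −0.49 ± 0.34 and −0.38 ± 0.28 (SE) and an edgeR adjusted p of 0.995 each. Oasl1 encodes an inhibitor of Irf7 translation in mice. It had 51.5, 63.7 and 109 CPM in KO, against 141, 53.2 and 160 CPM in WT, with 126, 102 and 69.7 CPM in KO + itaconate. The WT libraries were split, with WT replicate 2 at the level of the lower KO libraries. Without the 4 libraries in conflict, where WT is replicate 3 alone, the log2 fold changes were −1.45 for Oasl1, −0.73 for Ifi35 and −0.63 for Lgals9. Ifi35, a leucine zipper protein, had 38.0, 47.6 and 46.5 CPM in KO, against 73.2, 40.7 and 72.0 CPM in WT. Lgals9 encodes galectin 9, a secreted lectin, and had 133, 197 and 183 CPM in KO, against 220, 187 and 259 CPM in WT. Both overlapped between groups through WT replicate 2.

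In KO + itaconate against WT, an unadjusted p under 0.05 was reached by 4 of the 52 members (4 by DESeq2 and 6 by limma-voom), 2 in each direction, against 8.89% of all genes. Over the members, 21 were higher and 31 lower, with a median log2 fold change of −0.11 beside −0.01 over all genes, and 0.07 without WT replicate 1. The groups did not overlap for 3 members that were higher (Bst2, Eif2ak2 and Daxx), against 7.3% of all genes, and for 2 that were lower (Ifitm3 and Lgals3bp), against 7.25%. Eif2ak2, the double-stranded RNA-dependent kinase PKR that halts translation, had 257, 307 and 617 CPM in KO + itaconate, against 217, 174 and 211 CPM in WT, with 339, 222 and 270 CPM in KO. All KO + itaconate libraries were above WT, but the third was far above the other two. The log2 fold change was 0.97 ± 0.33 (edgeR adjusted p = 0.518), 0.50 without that library and 0.41 without the 4 libraries in conflict. Bst2 was at 0.59 ± 0.31 against WT, and at 0.30 without those 4 libraries.

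Lgals3bp, Oas1g and Ifitm3 were the members lower than in WT with the smallest p, at −1.09 ± 0.39, −0.92 ± 0.36 and −0.72 ± 0.39 (SE) on the log2 scale, with edgeR adjusted p-values of 0.522, 0.537 and 0.597. Ifitm3, a membrane protein that blocks virus entry through endosomes, had 1150, 1137 and 306 CPM in KO + itaconate, against 1305, 1236 and 1733 CPM in WT, with 1051, 1174 and 983 CPM in KO. The third KO + itaconate library alone was far below the rest. Without it the log2 fold changes were −0.71 for Lgals3bp, −0.61 for Oas1g and −0.31 for Ifitm3. Without all 4 libraries in conflict they were −0.70, −0.19 and −0.61 for these genes in the same order. That library is in conflict with its label and holds the lowest summed level of the macrophage markers. Among those markers Itgam went the other way, with 9287 reads there, against 8501 and 6562 in KO + itaconate replicates 1 and 2. The part of the label conflict or of the marker level in these values was not tested.

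The families differed in how their members lined up, and in no comparison did a family member pass the test. The Ifit genes, which lie within 1 cluster on chromosome 19, encode tetratricopeptide repeat proteins that bind viral RNA or block translation. Ifit1 had 2202, 1547 and 1154 CPM in KO + itaconate, 1282, 1661 and 2445 CPM in KO, and 1723, 661 and 1231 CPM in WT. Ifit2, which in mice limits neurotropic virus spread, had 1088, 1001 and 3032 CPM in KO + itaconate, 1240, 568 and 2710 CPM in KO, and 1406, 367 and 916 CPM in WT. The third library of both Irg1-/- groups was thus highest for Ifit2, and WT replicate 2 was lowest for both genes. Ifit2 had the widest range of all members, 8.25-fold between its highest and lowest library. Ifit3, a partner of other Ifit proteins, had 258, 224 and 165 CPM in KO + itaconate, 135, 397 and 271 CPM in KO, and 378, 158 and 295 CPM in WT, and Ifit3b had 20.2, 15.9 and 13.1, 11.1, 22.2 and 21.8, and 24.7, 14.2 and 28.9 CPM in the same order of groups. These neighbours had similar profiles over the 9 libraries (r = 0.90), while Ifit2 and Ifit3, which are closer together at 7.11 kb, did not (r = −0.06). Of the 50-base stretches in the last 500 transcript bases of Ifit3, 14.9% were shared with Ifit3b, so its counts are less certain. For Ifit3b, 1.77% were found in another gene. KO was higher than WT for 2 of the 4 Ifit genes, and KO + itaconate was higher than KO for 1 of 4.

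The Oas genes, all on chromosome 5, encode oligoadenylate synthetases that activate RNase L, or, in Oasl1 and Oasl2, related proteins. Relative to WT, all 6 were lower in KO, with a median log2 fold change of −0.30. All 6 were also lower in KO + itaconate (median −0.44), where Oasl2 was at −0.02. Both held under each of the 3 scalings tried. In edgeR 0 of 6 passed the adjusted threshold, and 0 and 1 had an unadjusted p under 0.05. Both comparisons share the WT libraries. Of all genes, 48.9% were higher in KO than in WT and 49.1% were higher in KO + itaconate than in WT. The family's mean deviation (log2) was 0.35, −0.16 and −0.91 in KO + itaconate replicates 1 to 3. Relative to KO, 4 were lower and 2 higher in KO + itaconate. Oas1a had 102, 55.1 and 28.6 CPM in KO + itaconate, 74.8, 86.7 and 83.7 CPM in KO, and 117, 107 and 75.2 CPM in WT. Oas1g had 23.2, 12.8 and 7.93 CPM in KO + itaconate, 27.3, 21.3 and 22.9 CPM in KO, and 29.3, 33.1 and 20.6 CPM in WT. KO + itaconate replicate 3 was lowest for both, and the groups overlapped for both. Oas2 had 75.0, 40.5 and 20.0 CPM in KO + itaconate, 35.2, 57.2 and 58.1 CPM in KO, and 63.7, 57.2 and 72.1 CPM in WT. Oas3 had 124, 118 and 58.2 CPM in KO + itaconate, 101, 103 and 106 CPM in KO, and 144, 112 and 131 CPM in WT. The 3 KO libraries for Oas3 lay close together and below every WT library. Oasl2 had 386, 361 and 294 CPM in KO + itaconate, 251, 299 and 367 CPM in KO, and 353, 294 and 412 CPM in WT.

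Oasl1 and Oasl2, the ubiquitin-like-domain members, had profiles close to each other and unlike those of Oas1a and Oas1g. Over the 9 libraries they had r = 0.94 with each other, and Oas1a and Oas1g had r = 0.94 with each other. Between these pairs r ran from −0.03 to 0.21, but Oas2 and Oas3 had r of 0.53 to 0.61 with Oasl1 and Oasl2. Without KO + itaconate replicate 3, Oas1g had r = 0.02 with Oas3, against 0.72 over the 9 libraries. Oas1a and Oas1g then had r = 0.84, and Oasl1 and Oasl2 r = 0.93. Oas1a and Oas1g share sequence, since 56.1% of the 50-base stretches near the Oas1a 3′ end and 30.2% of those near the Oas1g 3′ end are found in another gene, so their counts are less certain.

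**Figure D3:**
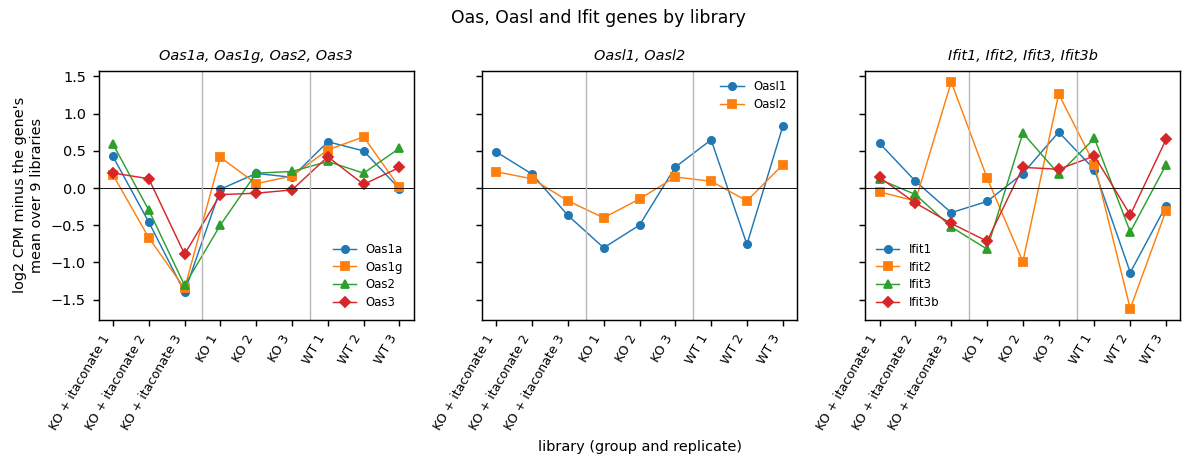
Deviation of log2 CPM from each gene's mean over the 9 libraries (y axis), by library (x axis), for the Oas, Oasl and Ifit genes; grey lines separate the groups. The Oas genes dip together in KO + itaconate replicate 3, Oasl1 and Oasl2 dip in KO replicate 1 and WT replicate 2, and Ifit2 peaks in KO + itaconate replicate 3 and KO replicate 3.

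The Mx genes encode dynamin-like GTPases that trap viral nucleocapsids. Mx1, which carries an inactivating deletion in C57BL/6 strains, had 322, 362 and 468 CPM in KO + itaconate, 699, 279 and 359 CPM in KO, and 481, 292 and 463 CPM in WT. KO replicate 1 alone was far above the rest. Mx2, which the annotation lists as a polymorphic pseudogene, had 55.4, 57.1 and 44.8 CPM in KO + itaconate, against 89.1, 75.1 and 58.3 CPM in KO and 94.7, 51.1 and 68.6 CPM in WT. Its KO + itaconate libraries were all below the KO libraries and overlapped WT. The log2 fold change against KO was −0.50 ± 0.30 (edgeR adjusted p = 0.674).

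The Parp members are ADP-ribosyltransferases, and Dtx3l is the ubiquitin ligase that pairs with Parp9. Parp9 had 288, 163 and 204 CPM in KO + itaconate, 247, 121 and 189 CPM in KO, and 175, 248 and 135 CPM in WT. Dtx3l had 463, 834 and 704 CPM in KO + itaconate, 489, 522 and 433 CPM in KO, and 623, 565 and 544 CPM in WT. Although the proteins act as a complex and the genes overlap on opposite strands, their levels did not follow each other (r = −0.25 over 9 libraries). Parp12 had 91.1, 79.4 and 68.6 CPM in KO + itaconate, 72.1, 86.6 and 77.4 CPM in KO, and 117, 75.8 and 95.0 CPM in WT. Parp14, which has roles in alternative macrophage activation, had 1413, 1401 and 2385 CPM in KO + itaconate, 1728, 1332 and 1712 CPM in KO, and 1838, 880 and 1499 CPM in WT. The groups overlapped for each of the Parp genes, and for Dtx3l the KO libraries lay below WT. All 4 had a positive log2 fold change in KO + itaconate against KO, from 0.02 to 0.47, which became 3 of 4 when libraries were scaled by their totals.

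The Slfn genes on chromosome 11 encode Schlafen proteins, which restrict growth and virus replication. All 3 were higher in KO than in WT (median log2 fold change 0.46) and lower in KO + itaconate than in KO (median −0.53), under each of the 3 scalings, with 0 past an unadjusted p of 0.05. Slfn2 ranged from 337 to 552 CPM in KO + itaconate, 461 to 835 CPM in KO and 342 to 470 CPM in WT. Slfn5 ranged from 505 to 578, 566 to 966 and 521 to 848 CPM, and Slfn8 from 197 to 467, 367 to 404 and 186 to 409 CPM, in the same order of groups. The groups overlapped for all 3 genes in both comparisons. Both fold changes share the KO libraries. Of the Slfn8 3′ stretches, 25.5% are also in Slfn9 or Slfn10-ps.

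The Trim members encode ubiquitin ligases: Trim21 is a cytosolic antibody receptor, Trim25 modifies the RNA sensor RIG-I, and Trim30a restrains Toll-like receptor signalling in mice. Trim30a was the steadiest of all 52 members, at 1576 to 2033 CPM in KO + itaconate, 1412 to 1608 CPM in KO and 1400 to 1804 CPM in WT, a 1.45-fold range over the 9 libraries. Trim21 ranged from 16.0 to 23.5, 17.9 to 27.7 and 20.4 to 31.6 CPM, and Trim25 from 169 to 242, 119 to 242 and 101 to 212 CPM, in the same order of groups. The groups overlapped for all 3 genes in every comparison, and log2 fold changes lay between −0.36 and 0.21.

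Single effectors with large ranges varied within groups. Rsad2, or viperin, makes a chain-terminating nucleotide, and Cmpk2, its divergent neighbour on chromosome 12, supplies the nucleotide it uses. Rsad2 had 6136, 4785 and 10797 CPM in KO + itaconate, 2425, 2701 and 7759 CPM in KO, and 6510, 1660 and 4250 CPM in WT. Cmpk2 had 342, 282 and 398 CPM in KO + itaconate, 210, 216 and 646 CPM in KO, and 680, 98.2 and 370 CPM in WT. Both were lowest in WT replicate 2 and higher in KO replicate 3 than in the other KO libraries, and the groups overlapped. Their correlation over the 9 libraries was 0.86, and 0.93 without KO + itaconate replicate 3. Usp18, the protease that removes Isg15 and dampens the receptor, had 308, 157 and 136 CPM in KO + itaconate, 176, 239 and 264 CPM in KO, and 412, 170 and 190 CPM in WT. Its highest value was in WT replicate 1, and the groups overlapped.

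Libraries differed in how many members they held highest or lowest. WT replicate 1 was the highest library for 13 of the 52 members (25.0%, against 8.29% of all genes) and the lowest for 0. WT replicate 2 was lowest for 11 (21.2%, against 7.27%), among them Ifit1, Ifit2, Rsad2, Cmpk2 and Eif2ak2. KO + itaconate replicate 3 was lowest for 20 members (38.5%, against 26.0% of all genes), among them Oas1a, Oas1g, Oas2, Oas3, Usp18, Isg20, Ifitm3, Ly6e, Lgals3bp and Mx2. The same library was highest for 7 (13.5%, against 19.8%), which were Ifit2, Rsad2, Parp14, Herc6, Eif2ak2, Slfn8 and Znfx1. KO replicate 1 was lowest for 8 (15.4%, against 13.3% of all genes), among them Isg15, Bst2, Oasl1 and Oasl2. It was highest for 7 (13.5%, against 15.2%), among them Mx1, Sp100 and Slfn2, so both shares were near those of all genes. The median member deviated from its mean over libraries by 0.18, −0.08 and −0.23 (log2) in KO + itaconate, −0.14, −0.06 and 0.10 in KO, and 0.31, −0.32 and 0.11 in WT, so the WT libraries spanned the widest range.

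**Figure D4:**
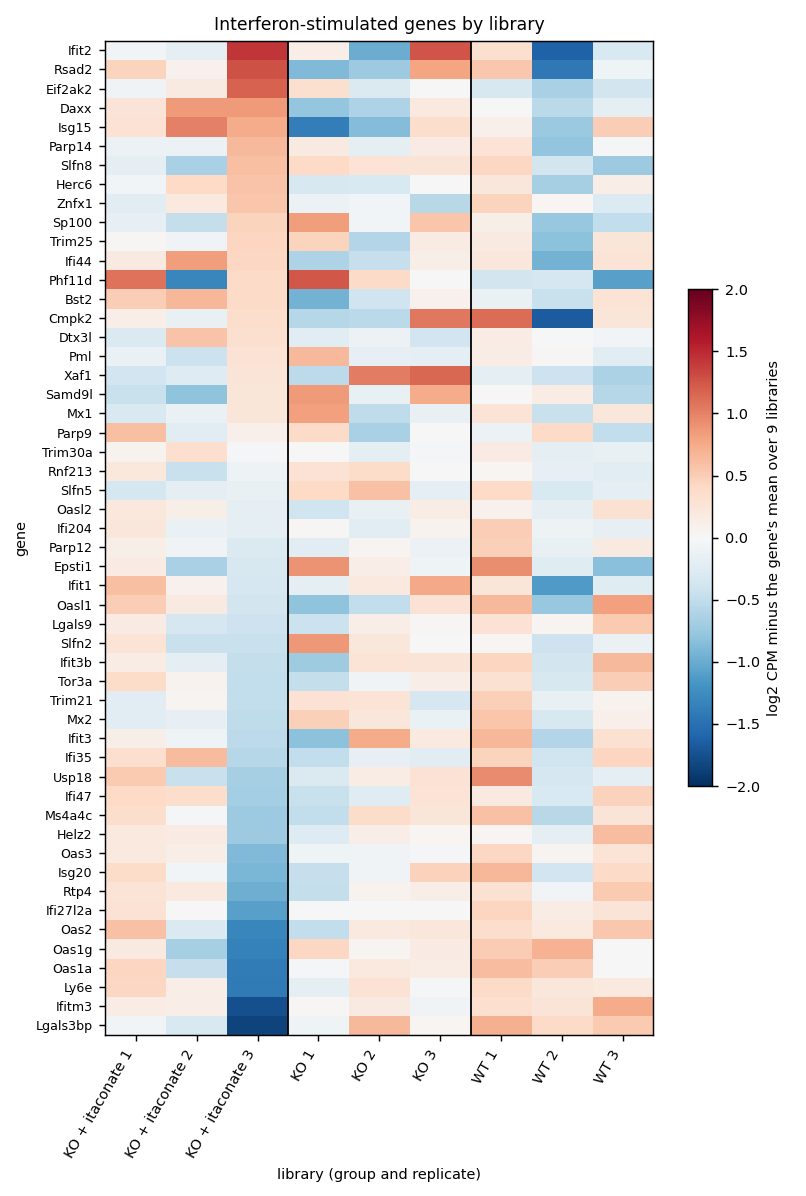
Deviation of log2 CPM from each gene's mean over the 9 libraries (colour), for the 52 members (rows, ordered by their value in KO + itaconate replicate 3) and the libraries (columns); black lines separate the groups. Many genes differ in colour between libraries of the same group, and the lowest values at the bottom are in KO + itaconate replicate 3.

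Members that were highest in KO + itaconate replicate 3 had long transcripts. The longest annotated transcript had a median length of 4313 bases in those 7 members, 1931 bases in the 20 that were lowest there and 3123 bases in the other 25. Across the 52 members, the Spearman correlation of transcript length with deviation in that library was 0.51, and across 10757 genes it was 0.28. In KO + itaconate replicate 1 it was −0.46 and −0.28, in KO replicate 1 it was 0.31 and 0.22, in WT replicate 3 it was −0.39 and −0.21, and in WT replicate 1 it was −0.32 and −0.12. In the other 4 libraries it lay between −0.17 and −0.06 across the members. Genes are not independent replicates, and the part of length or RNA quality in the members' values was not tested.

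**Figure D5:**
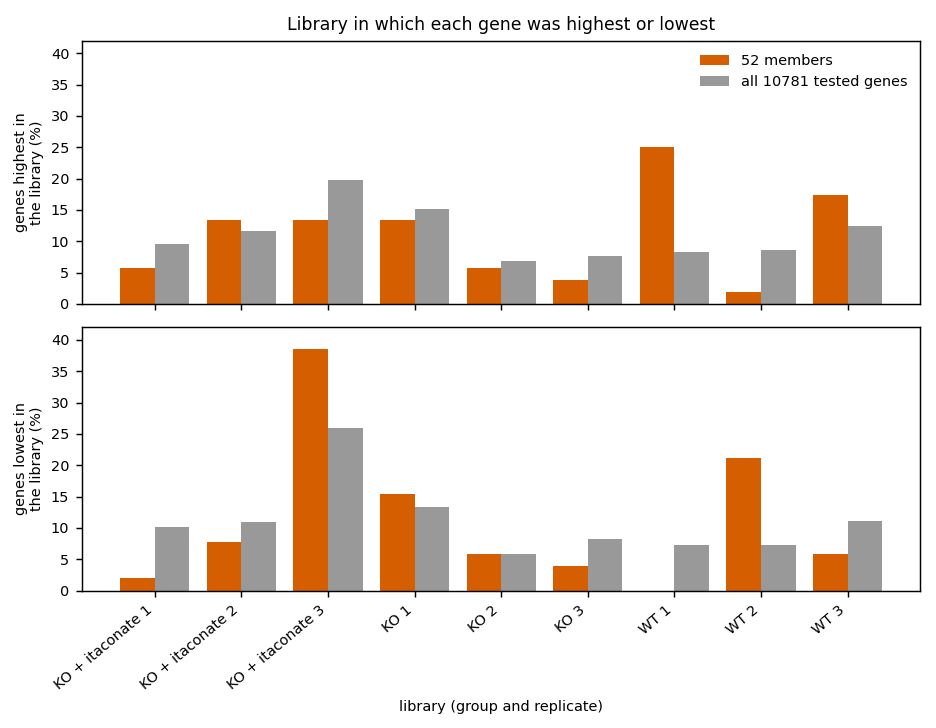
Percent of the 52 members and of all 10781 tested genes that were highest (upper panel) or lowest (lower panel) in each library. The tallest bars for the members are 25.0% highest in WT replicate 1 and 38.5% lowest in KO + itaconate replicate 3.

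Likeness to the other members was measured as the Pearson correlation of log2 CPM with the mean profile of the other members over the 9 libraries. All members were read from the same libraries, which differ in depth and pool. Highest were Isg20, an exonuclease for single-stranded RNA (0.85), Ms4a4c, a membrane protein (0.84), Usp18 (0.84), Ifit1 (0.79) and Cmpk2 (0.79). Isg20 had 180, 135 and 73.9 CPM in KO + itaconate, 102, 133 and 193 CPM in KO, and 221, 108 and 183 CPM in WT. Ms4a4c had 404, 311 and 190 CPM in KO + itaconate, 223, 409 and 374 CPM in KO, and 472, 214 and 375 CPM in WT. Both were highest in WT replicate 1 and lowest in KO + itaconate replicate 3. Lowest were Dtx3l (−0.30), Eif2ak2 (−0.26), Znfx1 (−0.24), Pml (−0.24) and Parp9 (−0.21). Znfx1, a helicase-type sensor of viral RNA, had 575, 771 and 979 CPM in KO + itaconate, 619, 645 and 455 CPM in KO, and 908, 687 and 553 CPM in WT. Pml, the organiser of nuclear bodies, had 82.1, 67.3 and 110 CPM in KO + itaconate, 142, 81.1 and 80.0 CPM in KO, and 100, 92.2 and 77.7 CPM in WT. Without KO + itaconate replicate 3 the value for Eif2ak2 was 0.16 and that for Dtx3l was −0.17.

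Members that lie near each other in the genome had more similar profiles than other pairs, described by medians. The 21 pairs within 200 kb had a median r of 0.58, and the other 1305 pairs one of 0.15. Without KO + itaconate replicate 3 these were 0.56 and 0.19. All near pairs except Rsad2 and Cmpk2 lie within a family as grouped here, so nearness and family cannot be told apart. Oas1a and Oas1g, and Ifit3 and Ifit3b, also share transcript sequence. Reads aligned to several places were set aside, so the counts of these genes are less certain. The near pairs among Parp9, Parp14 and Dtx3l had r of only −0.25 to 0.14. The most opposed pair was Eif2ak2 and Lgals3bp (r = −0.94, and −0.77 without KO + itaconate replicate 3). Oas3 and Ifi27l2a, which are on different chromosomes, were the most alike (r = 0.98, and 0.91 without that library).

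None of the remaining members had an unadjusted p under 0.05 in any comparison. Ly6e, a membrane protein that blocks coronavirus fusion, had 754, 616 and 211 CPM in KO + itaconate, 500, 688 and 549 CPM in KO, and 734, 657 and 643 CPM in WT. Ifi27l2a, a small mitochondrial protein, had 347, 283 and 133 CPM in KO + itaconate, 283, 282 and 284 CPM in KO, and 384, 316 and 341 CPM in WT. Both were low in KO + itaconate replicate 3, and Ifi27l2a was lower in every KO library than in every WT library. Herc6, the ligase that attaches Isg15 in mice, had 682, 933 and 1051 CPM in KO + itaconate, 568, 575 and 713 CPM in KO, and 831, 446 and 772 CPM in WT, with overlapping groups. The others are Ifi47, Ifi204, Rtp4, Rnf213, Tor3a, Epsti1 and Helz2, whose fold changes are in the plot of log2 fold changes.

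The genes that make and carry the interferon signal were read from a list of 22. Ifna1, Ifna2, Ifna4 and Ifng had no reads in any library. Ifnb1, the ligand, did not pass the filter and had 17, 6 and 22 reads in KO + itaconate, against 0, 4 and 6 in KO and 1, 0 and 2 in WT. Those are 1.57, 0.658 and 2.33 CPM in KO + itaconate, and at most 0.590 CPM in any other library. Of the 17 genes tested, edgeR called 0 in each comparison, and 2, 5 and 3 had an unadjusted p under 0.05 in KO + itaconate against KO, KO + itaconate against WT and KO against WT. The shares of all genes with such a p were 8.3%, 8.89% and 3.13% in the same order. Higher were 10, 11 and 12 of the 17, and lower 7, 6 and 5, where 48.4%, 49.1% and 48.9% of all genes were higher. Stat2, the ISGF3 subunit, had 903, 1451 and 2494 CPM in KO + itaconate, 1019, 665 and 1103 CPM in KO, and 893, 563 and 790 CPM in WT. Its log2 fold change was 0.80 ± 0.36 against KO and 1.11 ± 0.36 against WT (SE), led by KO + itaconate replicate 3. The edgeR adjusted p-values were 0.594 and 0.515, and KO + itaconate overlapped KO but lay above WT. Socs3, listed as an inhibitor, had the smallest p of the 17 against KO and went the other way. Its log2 fold change was −0.84 ± 0.33 (edgeR adjusted p = 0.529), with every KO + itaconate library below every KO library. Irf9, the DNA-binding subunit, had 115, 119 and 96.7 CPM in KO + itaconate, 83.1, 258 and 111 CPM in KO, and 134, 82.1 and 94.5 CPM in WT, with overlapping groups.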

How the data were processed

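For the 9 libraries the authors deposited raw counts of reads per gene in a single table of whole numbers. Per the labels' protocols, libraries were made by oligo-dT capture with barcoded oligo-dT primers, pooling and strand-specific ligation, so reads lie mostly near 3′ ends, and no molecular identifier is described. The submitters' processing notes name STAR, HTSeq and mm10. Tool versions are not given in the sources used here. This table held 22165 genes, of which 21745 had a symbol, and 5 summary lines that entered neither library sizes nor tests. Per library, 23.1% to 33.7% of reads were assigned to no counted gene feature, 17.1% to 20.0% aligned to several places and 0.275% to 0.441% were ambiguous. Limits from 3 reads cover counting error only.

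Counts were tested in R 4.3.3 with the two-sided quasi-likelihood F test of edgeR 4.0.16, fitting all 9 libraries together with a single term for group. Libraries were scaled by TMM (the trimmed mean of M-values), and genes were kept by edgeR's expression filter at a minimum count of 10. P-values were adjusted by Benjamini-Hochberg over 10781 genes, with a threshold of 0.05. CPM are TMM-scaled, sums over marker genes included, except for shares of reads and limits from 3 reads, which use gene reads alone, and log2 CPM used a prior count of 2. DESeq2 1.42.0, limma-voom 3.58.1, other scalings and filters, leaving out each library, the 4 libraries in conflict with their labels, a replicate block and the pool were alternatives. Same-numbered libraries had correlated deviations (r over 0.1) in 3 of 9 pairs, from −0.16 to 0.24, so the numbers were not taken to pair them.

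The members, subfamilies and other lists were chosen with earlier results of these data known. Values per library are given for the Ifit, Mx, Oas and Parp genes, Isg15, Usp18, Bst2, Ifitm3 and Rsad2, for the 3 members with the smallest p in each direction and comparison, and for the 5 most and 5 least like the other members; Slfn and Trim genes are given by range. Other members with values (Ifi44, Ly6e, Ifi27l2a and Herc6) were chosen after their values were seen. Gene positions and transcript ends come from GENCODE M21 on GRCm38, and promoters from RefSeq on GRCm38.p6.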

Additional observations from a re-analysis of the deposited data

How the results depend on the processing

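Calls were few under every setting run. Members called stayed at 0 in KO + itaconate against KO except without the 4 libraries in conflict with their labels, where 1 (Isg15) was called, and at 0 in the other comparisons under all alternatives. Without those 4 libraries 217 genes were called in KO + itaconate against KO, 1 in KO + itaconate against WT and 2 in KO against WT, and the member median in KO + itaconate against KO was 0.13. With no filter 80 and 92 genes were called in KO + itaconate against KO and against WT. DESeq2 called 12, 17 and 1 genes in KO + itaconate against KO, KO + itaconate against WT and KO against WT. Leaving out 1 library gave 0 to 6 genes in KO + itaconate against KO and 0 to 4 in KO + itaconate against WT, the highest without KO + itaconate replicate 1 in both. The cause of these differences was not tested. Over all alternatives the member median ran from −0.20 to 0.13, from −0.22 to 0.07 and from −0.30 to 0.02 in the 3 comparisons in that order. Of 348 alternative values of named genes, 344 kept their direction and side of the threshold, 3 changed sign without being called (Isg15 at −0.07, Daxx at −0.40 and Bst2 at −0.17, all with the pool as a term) and 1 passed the threshold. The pool fit links KO + itaconate to the other groups only through its replicate 1 and KO replicate 3, whose Irg1 reads conflict with its label. With the replicate number as a block, 0 members were called in each comparison. The medians were then −0.11 in KO + itaconate against KO, −0.05 in KO + itaconate against WT and −0.12 in KO against WT. The numbers were not taken to pair the libraries, although correlated deviations cannot exclude a pairing. With 3 libraries a group, the median standard error of a member's log2 fold change was 0.34 in each comparison, which limits what could be detected.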
